A study of Mus musculus with 52 samples.

Results

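The genes described here are those of the mouse mitochondrial genome, taken as every gene symbol in both count tables that starts with mt-. There were 37 of them among 49466 genes: 13 proteins, 2 ribosomal RNAs and 22 transfer RNAs. Of the 37, 15 reached 5 counts in at least 10 of the 52 libraries, namely 8 proteins, both rRNAs and 5 tRNAs. The libraries were single-cell RNA-seq of sister cells. Burst-forming unit-erythroid cells, early progenitors committed to the red cell lineage, were sorted from fetal liver of C57/Bl6J mouse embryos at day 14.5. Dexamethasone, a synthetic glucocorticoid, was present at 100 nM in the medium of some single founder cells and absent from that of the others. After 16 hours both daughters of founders that had divided once were sequenced from polyadenylated RNA. The labels give no genetic change and name no animal, and the untreated and dexamethasone groups each held 13 pairs.

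The mitochondrial genome encodes subunits of complexes I, III, IV and V of oxidative phosphorylation together with the rRNAs and tRNAs needed to translate them. Both of its strands are transcribed as long precursors, which are cut at the tRNAs that lie between the other genes, and the freed mRNAs and rRNAs then receive short poly(A) tails. Red cell progenitors depend on mitochondria for energy and for steps of heme synthesis, and lose the organelle only late in maturation.

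Exactly 4 libraries, all untreated, held under 100000 counts, 1 of them 0 counts, and the 3 pairs they belong to (untreated pairs 4, 7 and 12) were left out. The remaining 10 untreated and 13 dexamethasone pairs gave 46 cells with 210383 or more counts each, and the pair was the replicate. Because no animal is named, p-values rest on the variation among founders and their wells, which may come from 1 animal or several. Library names carry a number from 1 to 7 that goes with the first index sequence and is called the plate column here. Columns 1, 2 and 5 held untreated pairs, columns 3, 4 and 7 dexamethasone pairs, and column 6 was the only one with both. By the markers of red cells against those of granulocytes and monocytes, 18 pairs were erythroid-like and 5 were myeloid-like (untreated pairs 9 and 10, dexamethasone pairs 6, 7 and 10), although every founder had been sorted as an erythroid progenitor. No pair held daughters of both kinds, and 0 cells lay within 1 unit of log2(CPM + 1) of the cut, where CPM is a gene's counts scaled to the library total. Cell 2 of dexamethasone pair 10, called myeloid-like, nonetheless carried markers of both kinds. It had 9 of 15 granulocyte and monocyte markers and 10 of 20 erythroid markers at 10 CPM or more (mean levels 5.02 and 3.53). Summed markers of mast cells, lymphoid cells, macrophages, hepatocytes and endothelium each stayed at or below 0.0539% of the counts of any library with at least 100000 counts, and those of megakaryocytes at or below 0.106%. The mean megakaryocyte marker level was above the erythroid one in cell 1 of untreated pair 5 and in both cells of dexamethasone pair 8 (4.42 against 2.99 and 3.17 against 2.51), which are erythroid-like here only as against myeloid-like.

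The member genes were counted very unequally, and part of that inequality went with sequence that the nuclear genome repeats. Mitochondrial genes held 2.26% of all counts, and 9 genes held 99.8% of the mitochondrial counts. mt-Cytb, the cytochrome b of complex III, led with 1142037 counts, which was 39.3% of the mitochondrial total. Next came mt-Nd1 of complex I with 623460, mt-Co1 of complex IV with 412803 and the large rRNA mt-Rnr2 with 359550 counts. The complex I genes mt-Nd5 and mt-Nd4 held 114218 and 112550, mt-Nd2 held 57840, the small rRNA mt-Rnr1 held 51087 and mt-Nd6 held 24378 counts. At the other end 6 proteins shared 781 counts over all 52 libraries. They were mt-Nd3 (589), the ATP synthase subunits mt-Atp6 (95) and mt-Atp8 (24), the complex IV subunits mt-Co2 (38) and mt-Co3 (35), and mt-Nd4l, which had 0.

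These 6 proteins lie side by side, between the end of mt-Co1 at chrM:6872 and the start of mt-Nd4 at chrM:10167 (GRCm38, plus strand). Every 50-base stretch of each member was searched in all other GENCODE M21 transcripts. Of those stretches, 100% of mt-Co2, 99.9% of mt-Co3, 99.5% of mt-Atp6, 98.8% of mt-Nd4l and 98.0% of mt-Nd3 occurred exactly in a nuclear transcript. The share was 62.2% for mt-Nd4, 51.1% for mt-Co1, 8.2% for mt-Nd2, 7.6% for mt-Nd5 and 1.0% for mt-Rnr2. The matches were pseudogenes except that of mt-Rnr2, Gm20594, which is annotated as protein coding. The share was 0% for mt-Cytb, mt-Nd1, mt-Nd6 and mt-Rnr1. The matching transcripts were mostly 7 unprocessed pseudogenes in a row at chr1:24611535-24616197 on the minus strand, over 4663 bases, against 4649 bases at chrM:6394-11042. mt-Atp8 was the exception with 24 counts and 0% shared, but no transcript is annotated in the 233 bases between the pseudogenes Gm10925 and Gm28661 that stand where mt-Atp8 begins. No genome sequence was used, so whether those bases repeat mt-Atp8 was not tested.

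The beginning of mt-Co2 and of mt-Nd4l shows how close the copies are, each line giving the first 120 bases of the transcript, with capitals at the bases that differ from the mitochondrial gene. mt-Co2 (chrM:7013-7132) equals Gm28661 (gene at chr1:24614885-24615565, minus strand) at every base shown, and Gm13341 (gene at chr2:22587291-22587962, minus strand) has 2 mismatches. mt-Nd4l (chrM:9877-9996) equals Gm10222 (gene at chr1:24612407-24612700, minus strand).
mt-Co2: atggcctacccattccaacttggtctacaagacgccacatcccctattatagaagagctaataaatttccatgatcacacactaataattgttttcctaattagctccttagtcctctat
Gm28661: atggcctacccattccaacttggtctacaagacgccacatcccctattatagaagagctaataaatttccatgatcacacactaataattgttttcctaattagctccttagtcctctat
Gm13341: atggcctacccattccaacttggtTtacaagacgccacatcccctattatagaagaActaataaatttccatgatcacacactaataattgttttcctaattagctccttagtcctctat
mt-Nd4l: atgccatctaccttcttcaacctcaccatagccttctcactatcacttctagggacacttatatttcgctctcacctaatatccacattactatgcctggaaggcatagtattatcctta
Gm10222: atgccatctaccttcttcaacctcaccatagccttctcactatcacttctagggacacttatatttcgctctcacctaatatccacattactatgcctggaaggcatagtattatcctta

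The pseudogenes did not hold the counts that the mitochondrial genes lacked. Gm28661 had 35 counts over all libraries, Gm10925 (the copy of mt-Atp6) 173, Gm28437 (mt-Co3) 66, Gm28438 (mt-Nd3) 7 and Gm10222 (mt-Nd4l) 19. On chromosome 2, Gm13340, which repeats part of mt-Co1, had 614 and Gm13341 had 148. All 14 copies in the tables came to 1213 counts. The sources used here do not give how reads that match several places were counted. The levels of mt-Co2, mt-Co3, mt-Atp6, mt-Nd3 and mt-Nd4l, and part of those of mt-Co1 and mt-Nd4, are uncertain, and the values below are counts as deposited.

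**Figure D1:**
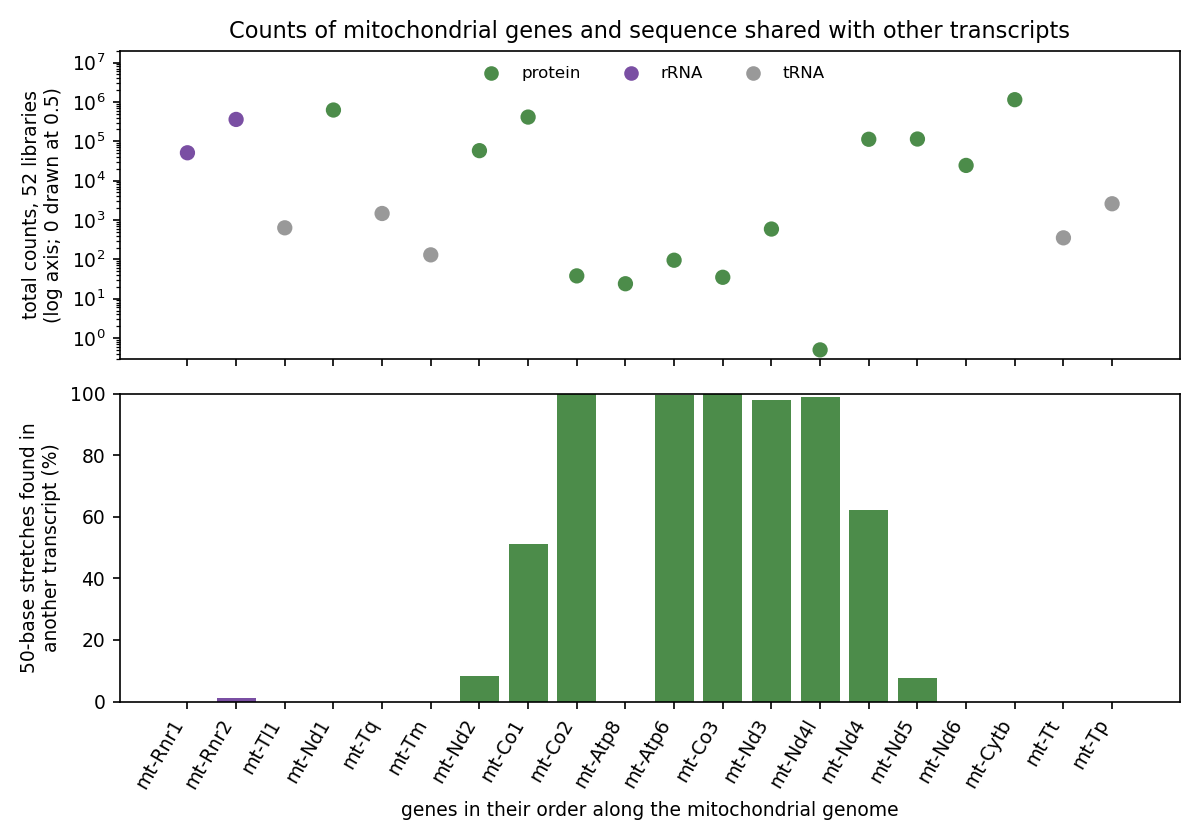
Total counts over the 52 libraries (upper panel, log axis) and the share of 50-base stretches found exactly in another annotated transcript (lower panel) for the 13 proteins, 2 rRNAs and 5 counted tRNAs, in their order along the mitochondrial genome. The 5 genes with 98.0% to 100% shared stretches hold at most 589 counts, whereas genes with 0% shared include mt-Cytb at 1142037.

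Per length the order of the counted genes changed little. The median over the 48 libraries with at least 100000 counts was 7034 CPM per kilobase for mt-Cytb, 5539 for mt-Nd1, 2245 for mt-Co1, 1756 for mt-Rnr2, 700.0 for mt-Nd4 and 506 for mt-Nd5. It was 373 for mt-Nd2, 284 for mt-Rnr1 and 273 for mt-Nd6, which lies on the opposite strand and shares the bases 13552 to 13565 with mt-Nd5. Divided only by the stretches that no other transcript holds, the same CPM gave 4744 per kilobase for mt-Co1 and 1922 for mt-Nd4. By the same division mt-Cytb had 7349, mt-Nd1 5838 and mt-Rnr2 1831. These are levels of unshared sequence only if no read from shared stretches was counted, which is not known. The cells overlapped between neighbours in this order: mt-Nd1 ranged from 233 to 9816 and mt-Cytb from 1751 to 24072 CPM per kilobase over single libraries. The lowest mt-Nd1 value came from the shallowest of these libraries, dexamethasone pair 12 cell 1 with 210383 counts. It had 223 CPM of mt-Nd1, and the next lowest library, untreated pair 13 cell 1, had 1551 CPM.

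The 22 tRNAs together held 5671 counts, or 0.195% of the mitochondrial counts. Of these, 5 passed the limit on counts and are described because they are the only tRNAs with enough counts to compare cells. Their totals were 2587 for mt-Tp (proline, chrM:15356-15422, minus strand), 1463 for mt-Tq (glutamine, chrM:3772-3842, minus strand), 633 for mt-Tl1 (leucine, chrM:2676-2750, plus strand), 352 for mt-Tt (threonine) and 130 for mt-Tm (methionine). The first 3 have these sequences, all in lower case because no base is singled out.
mt-Tp: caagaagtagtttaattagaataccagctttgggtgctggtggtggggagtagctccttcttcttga
mt-Tq: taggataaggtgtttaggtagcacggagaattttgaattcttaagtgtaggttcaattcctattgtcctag
mt-Tl1: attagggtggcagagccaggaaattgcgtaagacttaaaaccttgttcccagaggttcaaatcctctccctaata
Of the other 17 tRNAs, mt-Td, mt-Tk and mt-Th had 0 counts and the other 14 had at most 104 each. Whether these counts came from mature tRNAs or from precursors cannot be told apart in a table per gene. mt-Tp and mt-Tq lie on the minus strand and the strand setting of the counting is unknown, so reads of the opposite strand could be among their counts. The same limit holds for the protein gene mt-Nd6, which is also on the minus strand.

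The share of a cell's counts carried by mitochondrial genes ranged from 0.530% to 4.33% over the 46 cells, with a median of 2.37%. Counting error was small beside these differences. Untreated pair 5 cell 2, one of the shallower libraries with 405058 counts, had 3.23% with a 95% Wilson interval from 3.17% to 3.28%. Reads were not tagged as molecules, so such intervals cover counting error only. Across the 46 cells the log2 share had a Pearson r of -0.06 with the log10 library total, 0.18 with the number of genes detected, 0.04 with the mean erythroid marker level and -0.04 with the mean granulocyte and monocyte marker level, values that describe cells sharing founders and plate columns. The left-out libraries with counts had 1.22% (pair 4 cell 1), 2.30% and 2.89% (pair 7) and 1.53% and 1.35% (pair 12).

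Mitochondrial shares differed between plate columns. Setting columns 6 and 7 against columns 1 to 5 was decided after the shares were seen, so the values of these 2 sets are a description. In columns 1 to 5 the 17 pairs had shares from 2.06% to 3.52%, with a median of 2.69%. In columns 6 and 7 the 6 pairs had 0.772% to 1.79%, with a median of 1.32%, and these ranges did not overlap. Column 6 held 1.10% (untreated pair 13) and 1.54% (dexamethasone pair 9). Column 7 held 0.772%, 1.10%, 1.74% and 1.79%, all with dexamethasone. Single cells did overlap: in column 5, cell 1 of untreated pair 10 had 1.19% and the well covered daughter of the left-out pair 12 had 1.53%.

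**Figure D2:**
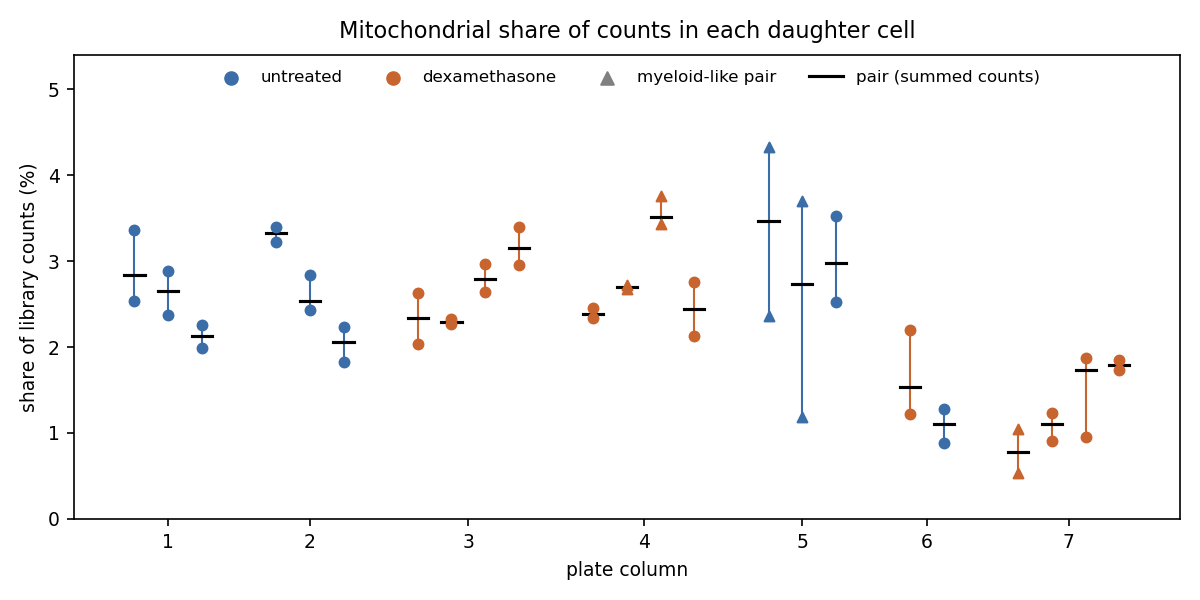
Share of library counts carried by mitochondrial genes (y axis, percent) for each daughter cell, grouped by plate column, with a line joining the daughters of a founder and a black bar at the pair's share. All 6 pairs of columns 6 and 7 lie at or below 1.79% and all 17 pairs of columns 1 to 5 at or above 2.06%.

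Column was tested within each treatment by an exact permutation test of the variation between columns in the log2 share of pairs. Columns held 0.806 of the sum of squares among untreated pairs (exact adjusted p = 0.0393, n = 10) and 0.706 of it among dexamethasone pairs (exact adjusted p = 0.0200, n = 13). The untreated result rested on few pairs: only pair 13 lay in column 6, and without it the fraction was 0.249 (exact unadjusted p = 0.393). It also missed the threshold without pair 3, 6, 9 or 11 (exact unadjusted p from 0.0536 to 0.0849). The dexamethasone result missed it without pair 11 (0.654, exact unadjusted p = 0.0768). Without the myeloid-like pairs neither passed (exact adjusted p = 0.193 untreated and 0.0643 with dexamethasone), and with the mean of the daughters' log2 shares the untreated one did not (exact adjusted p = 0.0889). Library totals had medians of 3562960 in column 6 and 3216320 in column 7 against 2015110 to 3209330 in columns 1 to 5, so column 7 was close to the highest of those. The number of genes detected had a median of 7737 in column 6 and 6499 in column 7 against 6744.5 to 8555.5 in columns 1 to 5. Granulocyte and monocyte markers summed to 0.000196% to 1.78% of counts in the 12 cells of columns 6 and 7, and erythroid markers to 0.053% to 1.80%. Over all 48 libraries with at least 100000 counts these ranges were 0% to 4.29% and 0.00264% to 1.80%. Cebpe and Gfi1 were at 0 in all 48. The part of depth, genes detected and markers in the result was not tested.

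The difference between columns was not a common scaling of all members. Medians in columns 6 and 7 were below those in columns 1 to 5 for 13 of the 15 counted genes, and for 5 of them (mt-Rnr2, mt-Nd1, mt-Co1, mt-Nd4 and mt-Nd5) all 6 pairs lay below all 17. Of the 7190 genes tested across columns, 0.0974% separated in this way. The genes that separated included those 5 and the nuclear gene Eif4b, a translation initiation factor, named after its values were seen.

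The large rRNA mt-Rnr2, the scaffold of the large mitochondrial ribosomal subunit, had the lowest ratio. It had 1597 to 7098 CPM in the 17 pairs of columns 1 to 5, with a median of 3597. In columns 6 and 7 it had 333 to 779 CPM, with a median of 488, which is 0.136 of the former. In edgeR's test of the column terms within treatment it had the smallest p of all 7190 genes (adjusted p = 0.0105).

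mt-Co1, the catalytic subunit of complex IV, had 2459 to 7383 CPM in columns 1 to 5, with a median of 3549. In columns 6 and 7 it had 550.3 to 1660 CPM, with a median of 872, or 0.246 of the former. It had the next smallest p in the same test (edgeR adjusted p = 0.0112). Part of the sequence of mt-Co1 is repeated in nuclear pseudogenes, as above, so its level is uncertain. These 2 genes were the only ones of the 7190 called, a background of 0.0278%.

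mt-Nd1 and mt-Nd4, membrane subunits of complex I, came next without passing (edgeR adjusted p = 0.0525 and 0.0572). mt-Nd1 had 4158 to 8914 CPM in columns 1 to 5 and 1585 to 3061 in columns 6 and 7. mt-Nd4 had 626 to 1547 CPM in columns 1 to 5 and 226 to 553 in columns 6 and 7, with the same limit from its nuclear copy. The number of member genes called was 4 with library totals as the scaling, 3 with every counted gene kept and 5 by limma. It was also 4 without untreated pair 11 or without dexamethasone pair 9.

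mt-Cytb, the most counted member, did not follow. It had 5230 to 10657 CPM in columns 1 to 4 (n = 14 pairs), with a median of 7929. In column 5 it had 11175, 16331 and 22386 CPM, above all pairs of columns 1 to 4. In columns 6 and 7 it had 3019 to 12372 CPM, with a median of 8654 that is 1.04 times the median of 8330 in columns 1 to 5. Its column test did not pass (edgeR adjusted p = 0.277). mt-Cytb was the most counted member in 19 of the 23 pairs, mt-Nd1 in 2, and mt-Co1 and mt-Rnr2 in 1 each.

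Of the remaining members only mt-Nd5 did not overlap between the sets of columns. mt-Nd5, the proton-pumping subunit at the end of complex I's membrane arm, had 702 to 2478 CPM in columns 1 to 5 and 119 to 443 in columns 6 and 7 (edgeR adjusted p = 0.173). mt-Nd2, another membrane subunit, had medians of 484 and 230 CPM in the same sets, or a ratio of 0.475. The small rRNA mt-Rnr1 had medians of 404 and 104 CPM, a ratio of 0.257, beside 0.136 for mt-Rnr2, its neighbour on the same precursor. The difference between the 2 rRNAs was not tested. mt-Nd6, the only protein gene of the opposite strand, had medians of 206 and 86.6 CPM, with the limit of the unknown strand setting. Among the tRNAs mt-Tl1, which lies between mt-Rnr2 and mt-Nd1, had medians of 7.58 and 1.57 CPM, mt-Tp 19.1 and 10.03, and mt-Tt 2.32 and 0.700. mt-Tq had 9.09 and 13.0 CPM and was, with mt-Cytb, the only counted member with a higher median in columns 6 and 7. None of these passed the column test (edgeR adjusted p from 0.173 to 1.00).

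The makeup of the mitochondrial counts also differed by column. mt-Cytb held 21.1% to 43.5% of them in columns 1 to 4 (median 27.0%), 37.5% to 64.5% in column 5 and 39.1% to 71.2% in columns 6 and 7 (median 64.5%). The 2 rRNAs together held 13.3% to 28.7% in columns 1 and 2, 10.5% to 23.1% in columns 3 and 4, and 6.39%, 7.24% and 19.1% in column 5. In column 6 they held 2.68% and 4.07%, and in column 7 they held 2.92% to 9.82%, so columns 6 and 7 lay below every pair of columns 1 to 4. By the exact permutation test within treatment, columns held 0.737 of the sum of squares of this rRNA part among untreated pairs (adjusted p = 0.0379, n = 10) and 0.777 among dexamethasone pairs (exact adjusted p = 0.0100, n = 13). With 1 untreated pair left out the untreated test passed only where that was pair 11. Without one of the other 9 pairs its exact unadjusted p was 0.0540 to 0.118. This measure was added after the values were seen.

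**Figure D3:**
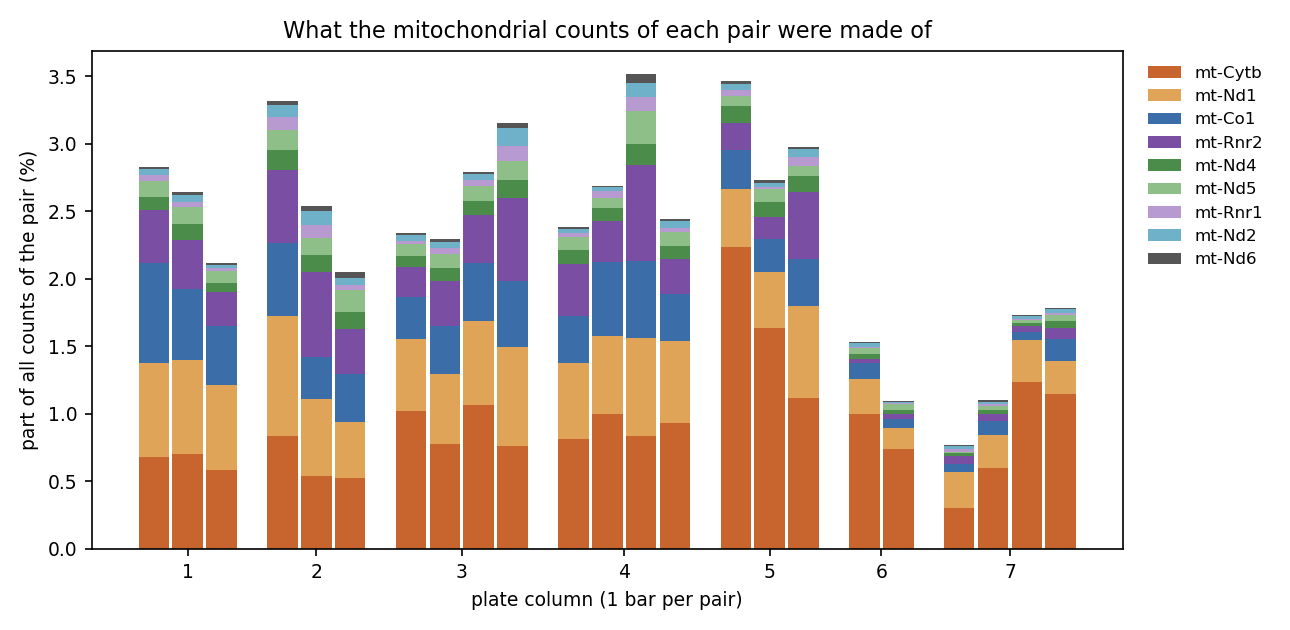
Part of each pair's counts (y axis, percent) held by each of the 9 most counted mitochondrial genes, with 1 stacked bar per pair in order of plate column. Bars of columns 6 and 7 keep most of their mt-Cytb segment (64.5% of mitochondrial counts at the median) and have thin mt-Rnr2 and mt-Co1 segments.

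**Figure D4:**
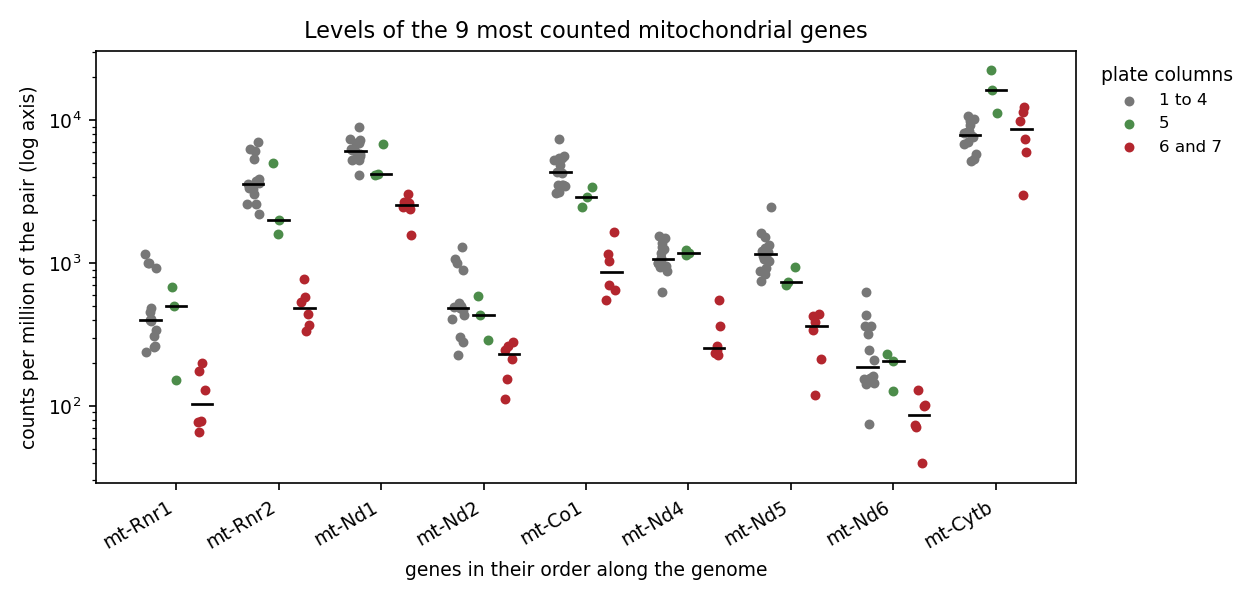
CPM of each pair (log axis) for the 9 most counted genes in their order along the genome, with the median of each set of plate columns as a bar. Pairs of columns 6 and 7 lie below all others for mt-Rnr2, mt-Nd1, mt-Co1, mt-Nd4 and mt-Nd5 and within the others for mt-Cytb, mt-Rnr1, mt-Nd2 and mt-Nd6.

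Dexamethasone was not followed by a detectable difference in the mitochondrial share. Untreated pairs had 1.10% to 3.47% with a median of 2.69% (n = 10), and dexamethasone pairs 0.772% to 3.52% with a median of 2.34% (n = 13). The groups overlapped over almost their whole range. The mean log2 share was 1.31 ± 0.48 (SD) untreated and 1.03 ± 0.62 with dexamethasone, a difference of -0.28 (two-sided exact permutation p = 0.256). The sign depended on the columns. Within columns 1 to 4 the difference was 0.067 (exact p = 0.612), within columns 5 to 7 it was -0.83 (exact p = 0.103), and without columns 6 and 7 it was -0.02 (exact p = 0.875). All of these permutations moved pairs across columns, and only column 6 held both treatments. Treatment and column therefore cannot be told apart in these comparisons. Within column 6 the dexamethasone pair had 1.54% and the untreated pair 1.10%, with 1 pair each and no test.

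Gene by gene, 0 of the 14 member genes tested by treatment passed, as did 0% of the 7190 genes tested (edgeR; 71 had an unadjusted p under 0.05, and DESeq2 and limma also called 0). mt-Cytb had 5230 to 22386 CPM untreated (median 7190) and 3019 to 12372 with dexamethasone (median 9281), a log2 fold change of -0.20 ± 0.28 (SE). mt-Nd1 had 1585 to 8914 CPM untreated (median 6015) and 2411 to 7386 with dexamethasone (median 5299), a change of -0.20 ± 0.23. Both genes overlapped between the treatments. mt-Co1 was at -0.35 ± 0.36 and mt-Rnr2 at -0.35 ± 0.46. The smallest p belonged to the threonine tRNA mt-Tt (-1.11 ± 0.61, unadjusted p = 0.0812, edgeR adjusted p = 1.00), with 0.391 to 11.7 CPM untreated and 0 to 6.31 CPM with dexamethasone. In all, 13 of the 14 estimates were below 0, with mt-Tq at 0.42 ± 0.55, and their median was -0.29 beside 0.02 for all genes tested. Without columns 6 and 7 only 7 of the 14 were below 0, and the median was -0.02. Treatment and column cannot be told apart in these estimates either.

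Daughters of 1 founder were closer to each other in mitochondrial share than cells of different founders, and this difference did not pass the test once plate column was held fixed. The mean absolute difference between sisters was 0.421 ± 0.399 in log2 share (SD, n = 23 pairs). Re-pairing cells at random within treatment gave 0.693 (permutation p = 0.00052 one-sided, 0.00104 two-sided). Sisters differed by 0.362 against 0.739 when re-paired among dexamethasone pairs (permutation p = 0.00028 one-sided) and by 0.498 against 0.633 among untreated pairs (permutation p = 0.123 one-sided). When cells were re-paired only within a plate column, sisters were closer than re-paired cells by 0.063, which did not pass (permutation p = 0.0897 one-sided). Without columns 6 and 7, re-paired within treatment, they were closer by 0.045 (permutation p = 0.191 one-sided). Re-pairing could return true sisters, more often within a column than within a treatment. Untreated pair 13 and dexamethasone pair 9, each alone of its treatment in column 6, always kept theirs. These values therefore understate the gap between sisters and cells of different founders. As a description, sisters had a Pearson r of 0.64 and a Spearman rho of 0.62 over all 23 pairs, and of -0.02 and 0.24 over the 17 pairs of columns 1 to 5, which include untreated pair 10 with 1.19% and 3.70%.

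How far sisters differed also varied by column. In columns 1 to 4 the 14 differences ran from 0.026 to 0.404, with a median of 0.191. In columns 5 to 7 the 9 differences ran from 0.091 to 1.64, with a median of 0.849. The largest belonged to untreated pair 10, a myeloid-like pair in column 5, with 1.19% and 3.70%. Next to it in column 5, untreated pair 9 had 2.36% and 4.33%. Cell 2 was the higher of the sisters in 14 of the 23 pairs.

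**Figure D5:**
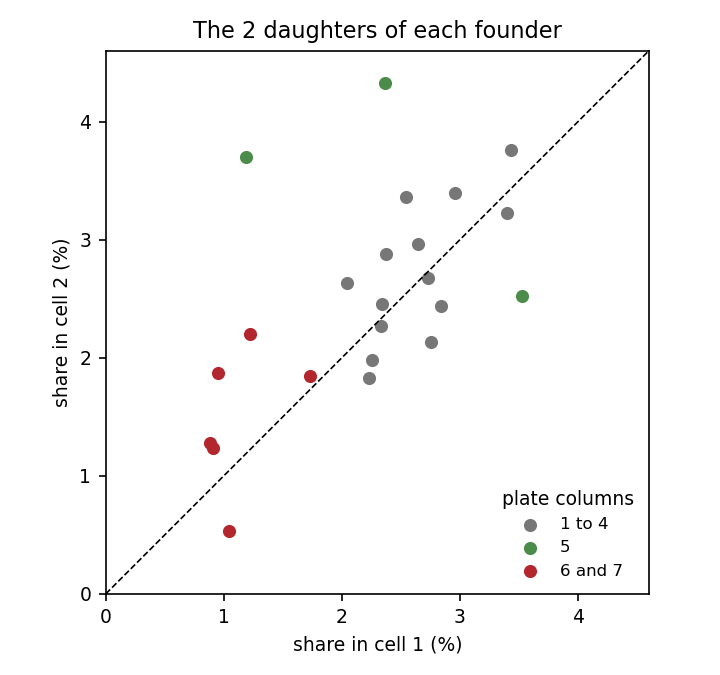
Mitochondrial share of counts in cell 2 (y axis, percent) against cell 1 (x axis, percent) for the 23 pairs, with the line of equality. Pairs of columns 6 and 7 gather at low shares, and the 17 pairs of columns 1 to 5 spread around the line of equality, with untreated pair 10 farthest from it (1.19% and 3.70%).

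In the test of founders for single genes, edgeR asked whether pairs differed by more than their sisters did. It called 7 of the 15 counted members, against 3.38% of the 8015 genes tested: mt-Co1, mt-Cytb, mt-Nd1, mt-Nd4, mt-Nd5, mt-Rnr1 and mt-Rnr2. mt-Rnr2 had the smallest adjusted p among them (0.00100), followed by mt-Co1 (0.00249) and mt-Cytb (0.00250). Sisters differed in mt-Rnr2 by 0.81 ± 0.91 on the log2(CPM + 1) scale (SD, n = 23), cells of different founders of the same treatment by 1.87, and cells of different founders in the same column by 0.99. For mt-Co1 the same 3 values were 0.68 ± 0.77, 1.46 and 0.82, and for mt-Cytb they were 0.48 ± 0.41, 0.68 and 0.59. With plate column terms in the model 0 of the 15 passed, against 1.16% of all genes, and mt-Cytb came nearest (edgeR adjusted p = 0.0669). Without columns 6 and 7 mt-Cytb alone passed (edgeR adjusted p = 0.00418), and without the myeloid-like pairs it did not (edgeR adjusted p = 0.109). The 5 tRNAs and mt-Nd3, with few counts, did not pass in that fit.

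Myeloid-like pairs did not differ detectably from erythroid-like pairs in mitochondrial share. The 5 myeloid-like pairs had 3.47% and 2.74% (untreated pairs 9 and 10) and 2.69%, 3.52% and 0.772% (dexamethasone pairs 6, 7 and 10). The 18 erythroid-like pairs had 1.10% to 3.33%, with a median of 2.36%. The myeloid-like pairs included both the highest and the lowest share of all. Within treatment the log2 difference was 0.11 (two-sided exact permutation p = 0.732), and its sign turned without untreated pair 9 (-0.005) or dexamethasone pair 7 (-0.073). Without columns 6 and 7, where myeloid-like dexamethasone pair 10 lies, the difference was 0.25 (exact permutation p = 0.0615).

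By gene, 0 of 14 members passed between the lineages, against 2.71% of the 9112 genes tested (edgeR; 1 member had an unadjusted p under 0.05, and DESeq2 called 0 members). That member was mt-Cytb. It had 22386 and 16331 CPM in the untreated myeloid-like pairs and 9962, 8357 and 3019 CPM in the dexamethasone ones. Erythroid-like pairs had 5230 to 12372 CPM, with a median of 7929, so that untreated pairs 9 and 10 stood above all of them and dexamethasone pair 10 below. The log2 fold change was 0.84 ± 0.30 (SE, edgeR adjusted p = 0.140). It passed without columns 6 and 7 (1.17, edgeR adjusted p = 0.00777) and without dexamethasone pair 10 (1.03, edgeR adjusted p = 0.0151), and did not with the sets of plate columns as a covariate (0.66, edgeR adjusted p = 0.199). Both untreated myeloid-like pairs lay in column 5, where the erythroid-like pair 11 had 11175 CPM, so column and lineage cannot be told apart for their high values. Estimates were above 0 for 13 of the 14 members, with mt-Nd3, whose level is uncertain, at -0.30 ± 0.81, and their median was 0.46 beside -0.01 for all genes. Without dexamethasone pair 7, 7 of the 14 were below 0 and the median was -0.008.

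Nuclear genes that copy, process and translate mitochondrial RNA gave few calls. Of 43 such genes listed, 42 were in the tables and 35 were tested by treatment, with 20 estimates above 0, 15 below, a median of 0.13 beside 0.02 for all genes, and 0 called. All 6 genes of mitochondrial transcription, such as the polymerase gene Polrmt, had estimates above 0, as did the 3 RNA processing genes. The 3 nuclear regulators had estimates below 0, as had 3 of the 5 replication genes and 2 of the 6 translation genes. Of the 12 genes of RNA stability and polyadenylation 5 were above 0 and 7 below. The smallest p belonged to Lrpprc, which keeps mitochondrial mRNAs stable, with 1.21 to 635 CPM untreated (median 249) and 19.8 to 425 with dexamethasone (median 179), a log2 fold change of -0.75 ± 0.54. It was followed by Hsd17b10, a subunit of mitochondrial RNase P (0.44 ± 0.34), the initiation factor Mtif3 (1.68 ± 1.40), the DNA-binding protein gene Ssbp1 (-0.39 ± 0.35), Fastkd1 of the RNA-binding FASTK family (-1.37 ± 1.32) and the initiation factor Mtif2 (0.99 ± 1.00). Each of these 6 had overlapping groups and an edgeR adjusted p of 1.00.

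Between lineages 1 of 39 tested genes of the list was called, against 2.71% of all genes, and 9 had an unadjusted p under 0.05, as did 1625 of the 9112 genes. The one called was Grsf1, which encodes an RNA-binding protein of the mitochondrial RNA granules and is named because it was the only one called. It was at 0 in 2 of the 5 myeloid-like pairs, with a median of 0.173 and at most 5.05 CPM, and had a median of 72.9 CPM in the erythroid-like pairs, where 1 of 18 was at 0. Its log2 fold change was -6.49 ± 1.5 (edgeR adjusted p = 0.0156). Of the 39 estimates 30 were below 0, with a median of -0.78 beside -0.01 for all genes. By plate column and by founder the list had 0 called of 35 and of 36 tested, against 0.0278% and 3.38% of all genes. An unadjusted p under 0.05 was found for 3 of the list and 504 of 7190 genes by column, and for 5 of the list and 1571 of 8015 genes by founder.

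The nuclear genes whose level over the 23 pairs went most closely with the mitochondrial share are given as a description, since the pairs share plate columns. The highest Spearman correlations among 7176 nuclear genes belonged to Sf3b6 (0.83) and Snrpb2 (0.75), which encode splicing factors, Otud4 (0.78), a deubiquitinase gene, Smc6 (0.74), of a DNA repair complex, and Ppp2ca (0.74), a phosphatase catalytic subunit. The lowest belonged to the transcription factor gene Myc (-0.73), the predicted gene Gm16286 (-0.71), Bsg (-0.71), a cell surface glycoprotein gene, Aspscr1 (-0.69) and Tomm40 (-0.68), the channel of the mitochondrial import complex. The middle 90% of all genes lay between -0.38 and 0.42. Over the 17 pairs of columns 1 to 5 the same genes gave 0.49 to 0.68 and -0.53 to -0.76. Sf3b6 had 110 to 454 CPM in columns 1 to 5 (median 223) and 58.6 to 182 in columns 6 and 7 (median 105). Myc had 1.56 to 1531 CPM in columns 1 to 5 (median 310) and 701 to 1697 in columns 6 and 7 (median 1052), and both genes overlapped between the sets.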

How the data were processed

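Single daughter cells were profiled by RNA-seq. The deposited values are whole-number read counts for each gene, not normalized, with 1 table for each treatment. STAR 2.4, featureCounts and the build GRCm38 are named in the submitters' processing notes. The sources used here give no settings for strand or multiple matches. Members and lists were chosen with earlier results of these data known.

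Counts of both daughters were summed per pair where each library held at least 100000 counts. The share was mt- counts divided by all counts, compared as log2 with exact permutation tests, or 100000 random re-pairings for sisters. Genes were fitted over the whole table with edgeR 4.0.16 in R 4.3.3 (filterByExpr, or 5 counts in 10 libraries for founders, TMM, quasi-likelihood F tests, Benjamini-Hochberg adjustment, threshold 0.05), with DESeq2 1.42.0 and limma 3.58.1 beside it. The fits by treatment and by founder were also run on simulated counts with the same dispersion for every gene, which does not give their power in these data. A standard error is the log2 fold change divided by the square root of F. Lineage was the higher of 2 mean log2(CPM + 1) marker levels. Sequences and coordinates came from GENCODE M21 transcripts, in which all 37 members matched by Ensembl identifier.

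Named were all mt- proteins and rRNAs, tRNAs past the count limit, all mt- genes that passed the main test, the 5 highest and 5 lowest correlated nuclear genes, and the 6 smallest p of the machinery list. Pair numbers are shared between treatments but pair nothing: over 10 numbers the deviations had a Pearson r of -0.16. The 48 libraries past the limit held 210383 to 5606500 counts. Alternatives covered scaling, filters, tool, plate column, lineage, shallow pairs and each pair left out.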

Additional observations from a re-analysis of the deposited data

Results flagged for a closer look

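The difference in mitochondrial share between sisters stood apart in untreated pair 10. Its daughters differed by 1.64 on the log2 scale, with 1.19% and 3.70% of counts, and its gap to the next untreated pair was 0.489 of the whole range of the 10 untreated pairs. Chance alone sets such a mark in about 1 of 20 groups of normally distributed values. Absolute differences have no negative values, so their rate may differ and was not tested. The pair was myeloid-like and lay in plate column 5, and the part of either was not tested.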

How the results depend on the processing

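Member counts by treatment stayed at 0 under all alternatives run, and the share difference by treatment missed the threshold under all of them. That difference kept its sign except within columns 1 to 4 (0.067). With the pair number as a replicate block that difference was -0.40 (permutation p = 0.172, n = 20) and 0 members passed. It changed no call. Alternatives added after the values were seen are those without columns 6 and 7, the rRNA part, and for plate columns limma and the fits without myeloid-like pairs. The cause of the changes below was not tested.

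Sisters were closer by 0.063 with re-pairing within plate column and by 0.045 without columns 6 and 7 (differences of -0.0628 and -0.0448), and neither passed. The column fraction of the untreated share no longer passed with the mean of the daughters' log2 shares (0.726) or without myeloid-like pairs (0.807), nor did the dexamethasone one (0.754) or the untreated rRNA part (0.939) without myeloid-like pairs. Members called by column numbered 4 with library totals and 5 by limma. By lineage the number was 1 without columns 6 and 7. By founder it was 7, against 0 with plate column terms, 3 with library totals, 4 with every counted gene (mt-Co1, mt-Cytb, mt-Rnr2 and mt-Tg, a tRNA with 31 counts) and 1 without columns 6 and 7. Over all genes, 247 were called between lineages, against 473 without columns 6 and 7, 739 with every counted gene and 1252 by DESeq2, which called 8 of the machinery list in place of 1 (2 without dexamethasone pair 7). By founder 271 were called, against 93 with plate column terms, 95 with library totals, 104 without columns 6 and 7, 158 without myeloid-like pairs, 542 by limma and 3313 with every counted gene. By column 2 were called, against 5 with library totals, 8 without myeloid-like pairs and 31 by limma.

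Without columns 6 and 7 the treatment estimates turned to 0.028 for mt-Co1, 0.022 for mt-Nd1, 0.107 for mt-Rnr2 and -0.156 for mt-Tq. Without myeloid-like pairs they turned to 0.469 for mt-Cytb and -0.025 for mt-Tq, by limma to 0.0015 for mt-Cytb, and with the replicate block to -0.61 for Mtif3. None passed.

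Leaving out 1 pair at a time gave -0.073 to 0.485 for the lineage difference, 0.249 to 0.892 and 0.654 to 0.773 for the column fractions of the untreated and dexamethasone share, and 0.530 to 0.952 for the untreated rRNA part. It gave 0 to 1 member by lineage, 2 to 4 by column, and -0.27 to 0.15 for mt-Cytb by treatment. Depth limits mt-Nd3 and the 5 tRNAs, whose median levels were 1.07 to 15.8 CPM per pair.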
